A study of Homo sapiens with 4 samples.

Results

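HLA class I antigen presentation genes were examined in WT cells and in ZCCHC4 KO1 cells, a clone in which ZCCHC4, which encodes an RNA methyltransferase, was disrupted with CRISPR/Cas9. The 9 genes, HLA-B, HLA-C, HLA-E, HLA-F, B2M, TAP1, TAP2, TAPBP and NLRC5, were taken from a table of 16658 genes by their Entrez identifiers, and all 9 passed the filter on low values that left 10726 genes for testing. Both groups were labelled as untreated HepG2 cells, a line from a human liver tumor, and were grown in DMEM with 10% FBS until RNA was taken. Each group had 2 libraries, so the comparison rests on the parental cells and 1 knockout clone, and properties of that clone other than the disrupted gene cannot be told apart from the knockout. The labels do not say that the 2 libraries of a group came from separate cultures, so the p-values measure only the spread between these libraries, which may be technical.

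Nearly every nucleated cell displays peptides from its own proteins on HLA class I molecules, where CD8+ T cells and natural killer cells read them. The proteasome cuts proteins into peptides, the transporter made of TAP1 and TAP2 carries them into the endoplasmic reticulum, and tapasin (TAPBP) holds the empty heavy chain beside the transporter while a peptide is loaded. The heavy chain (HLA-B, HLA-C, HLA-E or HLA-F) reaches the surface with the light chain β2-microglobulin (B2M), and NLRC5 is a transactivator that switches on many of these genes together. Tumor cells, liver tumors included, often carry less class I at their surface.

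In short, HLA-C rose in ZCCHC4 KO1 cells to 1.98 times its WT level, and HLA-B and HLA-E read 1.71 and 1.67 times theirs without passing an FDR of 0.05 as deposited. B2M, TAP1, TAP2, HLA-F and NLRC5 differed by at most 0.21 on the log2(FPKM + 1) scale. TAPBP read 0.659 times its WT level in ZCCHC4 KO1 cells and also missed that threshold. The 3 heavy chains HLA-B, HLA-C and HLA-E thus stood higher relative to B2M and to TAPBP in the same libraries.

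The sequences just upstream of the start sites are shown first, as background on the promoter elements that class I genes share. Whether these elements bear on the values below was not tested. RefSeq for GRCh38.p14 gave such a sequence for 7 of the 9 genes, not for HLA-E or NLRC5. Each line runs 5′ to 3′ on the strand of the gene and covers the matches to 4 short motifs, which are in capitals, with up to 10 flanking bases. The motifs, searched on both strands, were CCAAT (the NF-Y box), TGACGC (the core of the X2 box that CREB/ATF factors bind), AANNGAAA (the core bound by interferon regulatory factors) and GGGGATTC (a κB-like element). Neighbouring matches to AANNGAAA can overlap and then form 1 run of capitals. The letters were chosen with these sequences in view, so the matches are a description.

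HLA-B, chr6:31357221-31357366, minus strand: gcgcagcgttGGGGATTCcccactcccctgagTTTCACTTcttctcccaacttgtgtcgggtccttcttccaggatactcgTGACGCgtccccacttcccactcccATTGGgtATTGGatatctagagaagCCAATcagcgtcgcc
HLA-C, chr6:31272134-31272294, minus strand: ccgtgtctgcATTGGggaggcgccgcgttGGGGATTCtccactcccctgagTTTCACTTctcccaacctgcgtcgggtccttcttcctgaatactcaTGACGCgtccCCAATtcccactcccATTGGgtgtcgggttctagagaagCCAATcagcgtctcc
HLA-F, chr6:29723268-29723391, plus strand: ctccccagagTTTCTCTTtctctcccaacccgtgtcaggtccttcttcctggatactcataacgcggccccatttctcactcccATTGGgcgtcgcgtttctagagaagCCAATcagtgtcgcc
B2M, chr15:44711365-44711482, plus strand: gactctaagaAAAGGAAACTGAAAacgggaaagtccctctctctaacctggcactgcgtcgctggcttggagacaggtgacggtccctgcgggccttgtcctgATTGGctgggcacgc

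HLA-B and HLA-C carried the same 4 kinds of match, and in both GGGGATTC and AANNGAAA lay upstream of TGACGC and of the CCAAT boxes nearest the start. HLA-C had a further CCAAT match, on the other strand, upstream of its GGGGATTC. HLA-F kept the CCAAT boxes and the interferon-type element but had no match to TGACGC or GGGGATTC in this window, and B2M had only CCAAT and the interferon-type element. TAP1 had the CCAAT and interferon-type matches, TAP2 had TGACGC and the interferon-type matches, and TAPBP had the interferon-type matches alone. Of 35116 RefSeq promoters, each read over the 250 bases before the start, 32.0% held CCAAT, 7.67% held TGACGC, 20.3% held AANNGAAA and 0.772% held GGGGATTC. No binding of any factor was measured here.

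The libraries were compared with their labels before the results. ZCCHC4 read 7.22 and 5.44 FPKM in WT cells and 1.08 and 2.29 FPKM in ZCCHC4 KO1 cells (limma with Benjamini-Hochberg adjustment, adjusted p = 0.0448). FPKM is a fragment count scaled by transcript length and by the mapped fragments of the library, so levels of different genes can be set side by side. The FPKM sums were between 512417 and 565199 per library, and between 10191 and 10693 genes reached 1 FPKM; the sequencing depth is unknown, and no interval for counting error was formed. Of 12 hepatocyte markers, 6 were in the table and together summed to at most 0.85 FPKM in any library, AFP at most 0.05. The libraries thus did not show the hepatocyte transcripts that go with the HepG2 label. The 6 listed markers of simple epithelium were divided. The keratin KRT7 read 2026 to 3078 FPKM, and KRT8 and KRT18 read at least 1923 and 1294 FPKM. KRT19, EPCAM and SOX9 read at most 0.11, 0.03 and 0.1 FPKM in any library. Of 9 leukocyte markers, 6 were in the table, with sums of 16.2 to 17.9 FPKM in WT cells and 12.9 to 13.5 in ZCCHC4 KO1 cells. Nearly all of that was CD68, which other cells also make, and the pan-leukocyte gene PTPRC read at most 0.12 FPKM. GC content moved opposite ways between replicates: across genes its Spearman correlation with replicate 2 minus replicate 1 was 0.72 in WT cells and -0.78 in ZCCHC4 KO1 cells, given as a description across genes that share these libraries. For this reason values after removal of the GC trend from each library stand beside the main ones below where this changed a call. They are read against the larger share of all tested genes that then passed an FDR of 0.05, 13% higher and 13.8% lower.

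B2M was by far the most abundant of the 9 genes. In WT cells the levels fell in the order B2M, TAPBP, HLA-C, HLA-E, TAP2, HLA-B, TAP1, NLRC5 and HLA-F, and HLA-C with HLA-E were the only neighbours whose libraries overlapped. In ZCCHC4 KO1 cells the order was B2M, HLA-C, HLA-E, HLA-B, TAP2, TAPBP, TAP1, NLRC5 and HLA-F, with no overlapping neighbours. TAPBP thus moved from the second place to the sixth, and HLA-B from the sixth to the fourth. In RNA from whole cultures, fewer cells that express a gene and less RNA per cell cannot be told apart.

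**Figure D1:**
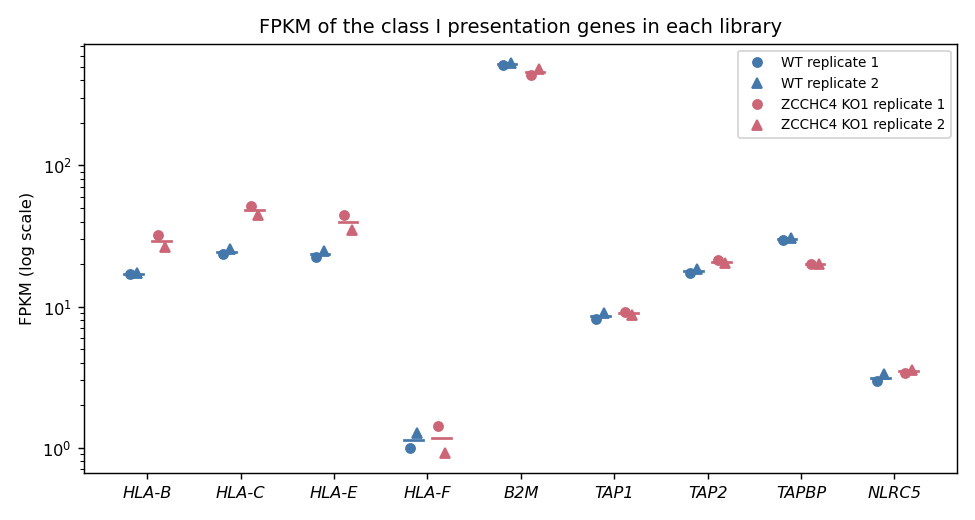
FPKM of the 9 class I presentation genes in each library, on a log axis, with 2 points for WT cells and 2 for ZCCHC4 KO1 cells and a bar at the mean. HLA-B, HLA-C and HLA-E lie higher and TAPBP lower in both ZCCHC4 KO1 libraries, and B2M lies between 436 and 527 FPKM in all 4.

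HLA-C encodes a classical heavy chain that presents peptides to T cells and is a main ligand of the killer cell receptors of natural killer cells. The gene (Entrez 3107) lies on chromosome 6 from 31268749 to 31272092 in GRCh38.p14. It read 23.5 and 25.4 FPKM in WT cells and 52.0 and 44.8 FPKM in ZCCHC4 KO1 cells. Both ZCCHC4 KO1 libraries were well above both WT libraries. On the log2(FPKM + 1) scale the difference was 0.95 with a standard error of 0.15 (limma, Benjamini-Hochberg adjusted p = 0.0257, n = 2 libraries per group). Without WT replicate 1 it was 0.90 and the call was lost, with an adjusted p of 0.104 by the same limma test. With the GC trend removed the difference was 0.91 and the limma adjusted p was 0.00122.

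HLA-B (Entrez 3106; chromosome 6, 31353875 to 31357179) encodes the other classical heavy chain examined here. It read 17.1 and 17.2 FPKM in WT cells and 32.1 and 26.4 FPKM in ZCCHC4 KO1 cells. The groups did not overlap, and the 2 ZCCHC4 KO1 libraries were farther apart than the 2 WT libraries. The difference was 0.74 ± 0.16 (SE) on the log2 scale, with a limma adjusted p of 0.0599. Leaving out 1 library gave 0.60 (limma adjusted p 0.129) without ZCCHC4 KO1 replicate 1 and 0.87 (0.0130) without ZCCHC4 KO1 replicate 2, and adjusted p-values of 0.353 and 0.317 without WT replicate 1 or 2. A single left-out library thus gained the call and the other 3 did not, and with the GC trend removed it was 0.70 (adjusted p 0.00456 by limma).

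HLA-E (Entrez 3133; chromosome 6, 30489509 to 30494194) encodes a nonclassical heavy chain that shows leader peptides of other heavy chains to the NKG2A receptor, an inhibitory receptor of natural killer cells. It read 22.6 and 24.8 FPKM in WT cells and 44.4 and 34.7 FPKM in ZCCHC4 KO1 cells. Again both ZCCHC4 KO1 libraries were above both WT libraries. The log2 difference was 0.71 ± 0.17 (SE), with a limma adjusted p of 0.0768. It was 0.53 (limma adjusted p 0.156) without ZCCHC4 KO1 replicate 1 and 0.88 (0.00997) without ZCCHC4 KO1 replicate 2, and the limma adjusted p was 0.427 and 0.236 without WT replicate 1 or 2. With the GC trend removed the difference was 0.72 (limma adjusted p 0.00659).

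HLA-F (Entrez 3134; chromosome 6, 29723434 to 29738532), a nonclassical heavy chain found in part without bound peptide, was close to the detection filter. It read 0.99 and 1.26 FPKM in WT cells and 1.43 and 0.91 FPKM in ZCCHC4 KO1 cells. The groups overlapped, and the log2 difference of 0.02 ± 0.20 (SE) had a limma adjusted p of 0.966. Its sign turned with the GC trend removed and when either library numbered 1 was left out.

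HLA genes resemble each other, and reads from one copy can be assigned to another. Of the 50-base windows of the HLA-B transcript, 2.6% also occurred in another gene and 2.0% in HLA-C. For HLA-C the share was 6.8%, for HLA-E 6.2% and for HLA-F 1.9%, and among the other genes TAP2 had the largest, 35.3%. The sum of HLA-B and HLA-C, which hardly changes if fragments are exchanged between these 2 genes, was 40.5 and 42.6 FPKM in WT cells and 84.0 and 71.2 FPKM in ZCCHC4 KO1 cells. HLA-C over HLA-B was 1.38 and 1.48 in WT cells and 1.62 and 1.69 in ZCCHC4 KO1 cells.

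B2M (Entrez 567; chromosome 15, 44711517 to 44718145), which encodes the light chain, did not follow HLA-B, HLA-C and HLA-E. It read 512 and 527 FPKM in WT cells and 436 and 484 FPKM in ZCCHC4 KO1 cells, so the knockout libraries were the lower ones and the groups did not overlap. The log2 difference was -0.18 ± 0.14 (SE), with a limma adjusted p of 0.521. B2M transcripts have a GC content of 39.1% and the HLA-B, HLA-C and HLA-E transcripts between 55.1% and 60.1%. With the GC trend removed the B2M difference was -0.04 and those of the 3 heavy chains between 0.70 and 0.91.

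Per 100 FPKM of B2M in the same library, HLA-B, HLA-C and HLA-E together read 12.3 and 12.8 FPKM in WT cells and 29.5 and 21.9 FPKM in ZCCHC4 KO1 cells. The mean ratio was 2.05 times as high in ZCCHC4 KO1 cells, and the groups did not overlap. In every library B2M remained in excess of these heavy chains on the FPKM scale. A ratio within a library does not depend on the scaling between libraries, but it shows only that the genes changed unequally.

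**Figure D2:**
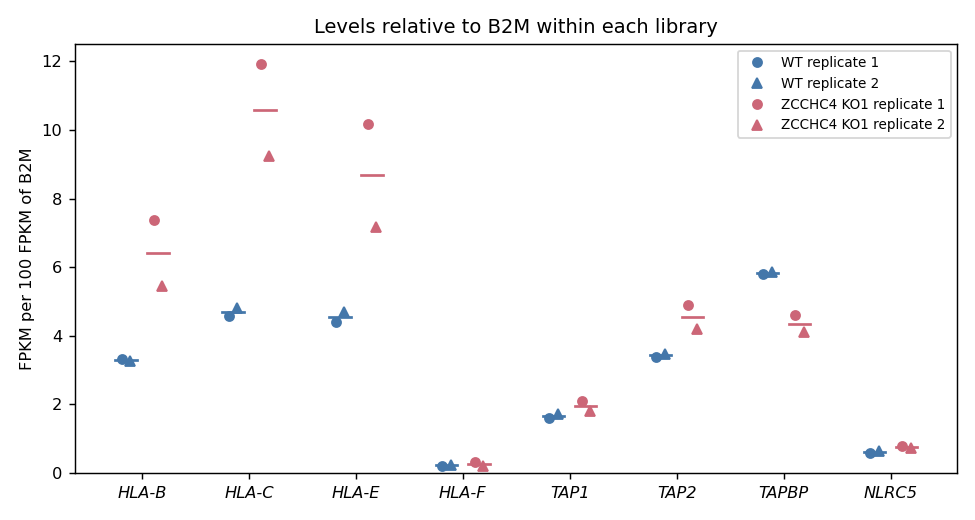
FPKM of the 8 class I presentation genes other than B2M per 100 FPKM of B2M in the same library, with 2 points per group and a bar at their mean. HLA-C lies at 4.59 and 4.82 in WT cells and at 11.9 and 9.26 in ZCCHC4 KO1 cells, while TAPBP lies at 5.81 and 5.85 in WT cells and at 4.60 and 4.12 in ZCCHC4 KO1 cells.

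TAPBP (Entrez 6892; chromosome 6, 33299694 to 33314078), which encodes tapasin, had the largest negative difference of the 9 genes. It read 29.8 and 30.8 FPKM in WT cells and 20.0 and 19.9 FPKM in ZCCHC4 KO1 cells. The 2 libraries of each group nearly coincided, and the groups lay far apart. The log2 difference was -0.58 ± 0.14 (SE), with a limma adjusted p of 0.0746. It was -0.59 with the GC trend removed (limma adjusted p 0.00779) and -0.50 under median-ratio scaling (limma adjusted p 0.193). Leaving out each library in turn gave -0.60 to -0.55 for TAPBP.

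The transporter genes TAP1 (Entrez 6890; chromosome 6, 32845209 to 32853704) and TAP2 (Entrez 6891; chromosome 6, 32821831 to 32838739) showed no such difference. TAP1 read 8.20 and 8.99 FPKM in WT cells and 9.16 and 8.70 FPKM in ZCCHC4 KO1 cells, and the groups overlapped (log2 difference 0.05, limma adjusted p 0.903). TAP2 read 17.4 and 18.4 FPKM in WT cells and 21.4 and 20.3 FPKM in ZCCHC4 KO1 cells, without overlap (log2 difference 0.21, limma adjusted p 0.468). The TAP2 values carry the uncertainty of the shared windows above. TAPBP over TAP1 was 3.63 and 3.43 in WT cells and 2.19 and 2.29 in ZCCHC4 KO1 cells, and TAPBP over HLA-B was 1.75 and 1.80 in WT cells and 0.624 and 0.753 in ZCCHC4 KO1 cells.

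NLRC5 (Entrez 84166; chromosome 16, 56989557 to 57083520) read 2.97 and 3.30 FPKM in WT cells and 3.38 and 3.56 FPKM in ZCCHC4 KO1 cells. Both ZCCHC4 KO1 libraries were above both WT libraries by a small step, and the log2 difference of 0.11 ± 0.19 (SE) had a limma adjusted p of 0.781.

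**Figure D3:**
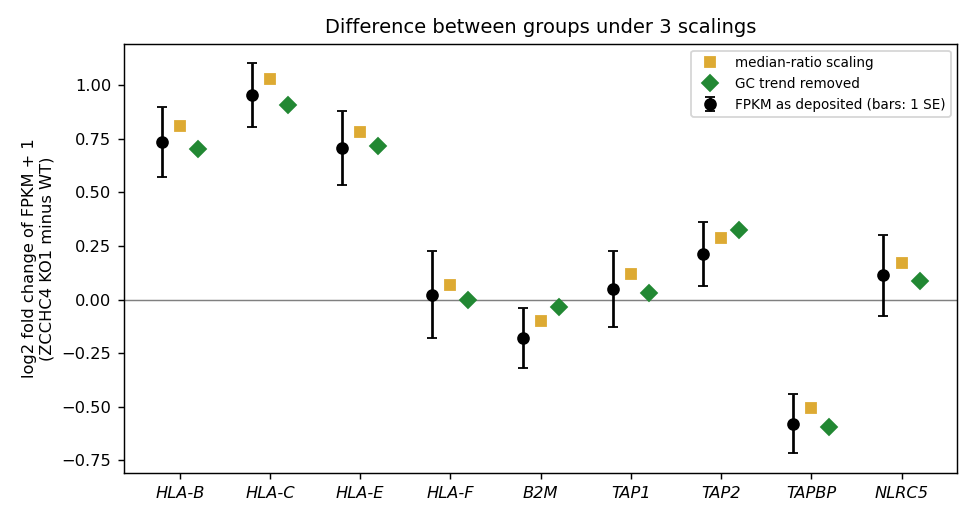
Difference of log2(FPKM + 1), ZCCHC4 KO1 minus WT, for the 9 class I presentation genes, as deposited (circles with bars of 1 standard error from limma), after median-ratio scaling (squares) and with the GC trend removed (diamonds). HLA-B, HLA-C and HLA-E lie between 0.70 and 1.03 and TAPBP between -0.59 and -0.50 in all 3, and the others reach at most 0.32, in TAP2.

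Counted together, 1 of the 9 genes, HLA-C, passed an FDR of 0.05 in the positive direction and 0 in the negative, against 1.5% and 4.48% of all tested genes (5.98% in either direction). With the further demand of a 2-fold change 0 of the 9 were left, against 0.932% higher and 3.25% lower of all tested genes (4.19% in either direction). The study called genes at P below 0.05, FDR below 0.001 and a change of 2-fold or more. By that rule limma called 0 of the 9, against 0.0186% higher and 0.0559% lower of all tested genes (0.0746% in either direction). The study itself reported far more genes past these thresholds, higher and lower, by a test that its text does not name. In mean FPKM without a test, 0 of the 9 reached 2-fold, against 2.07% higher and 5.93% lower of all tested genes. At an unadjusted p below 0.05, 3 were higher and 1 was lower, against 8.96% and 13.9% of all tested genes (22.9% in either direction). The libraries did not overlap for 7 of the 9, with ZCCHC4 KO1 above WT in 5 and below in 2. Over all tested genes the share was 51.6%, with 23.1% above and 28.5% below, so a gene without overlap was common in this table. The median log2 difference of the 9 was 0.11 and that of all tested genes -0.03. With the GC trend removed, 3 of the 9 passed an FDR of 0.05 as higher and 1 as lower, against the same 13% and 13.8% of all tested genes. For a single gene, an exact two-sided permutation test of 2 against 2 libraries cannot go below p = 0.333.

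The other proteins of the peptide loading complex and its quality control were described from a list of 12 genes, of which 10 were tested. By limma at an FDR of 0.05, 0 were higher and 1 was lower, and at an unadjusted p below 0.05, 0 were higher and 4 were lower (median log2 difference -0.10, with 4 positive and 6 negative values). After GC removal 1 was higher and 3 were lower at an FDR of 0.05, and with either WT library left out 0 passed. HSPA5, the chaperone BiP of the endoplasmic reticulum, fell from 179 and 164 FPKM in WT cells to 84.7 and 103 FPKM in ZCCHC4 KO1 cells (log2 difference -0.87, limma adjusted p 0.0330). CALR, calreticulin, which holds the heavy chain by its glycan during loading, read 699 and 755 FPKM in WT cells and 512 and 457 FPKM in ZCCHC4 KO1 cells, without overlap (limma adjusted p 0.0827, and 0.0189 with the GC trend removed). PDIA3, the ERp57 disulfide isomerase that is bound to tapasin, read 168 and 164 FPKM in WT cells and 121 and 139 FPKM in ZCCHC4 KO1 cells (limma adjusted p 0.194). CANX, calnexin, chosen after its values were seen, read 269 and 205 FPKM in WT cells and 111 and 172 FPKM in ZCCHC4 KO1 cells (limma adjusted p 0.144, and 0.00730 with the GC trend removed). HSPA5, CALR, PDIA3 and CANX had negative differences like TAPBP, and of these HSPA5 passed as deposited. On the other side, HM13, the signal peptide peptidase, also chosen after its values were seen, read 77.2 and 87.8 FPKM in WT cells and 113 and 95.5 FPKM in ZCCHC4 KO1 cells (limma adjusted p 0.261, and 0.0474 with the GC trend removed). The peptide trimming enzyme ERAP1 read 2.78 and 2.42 FPKM in WT cells and 2.24 and 3.93 FPKM in ZCCHC4 KO1 cells, with overlap, and ERAP2 read at most 0.15 FPKM in any library and was not tested.

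The interferon-inducible proteasome subunits PSMB8 and PSMB9, which replace constitutive subunits in the immunoproteasome, were barely present. PSMB8 read at most 0.28 FPKM and PSMB9 at most 0.40 FPKM in any library, and neither was tested. PSMB10, the remaining inducible subunit, read 20.9 and 24.3 FPKM in WT cells and 47.0 and 33.5 FPKM in ZCCHC4 KO1 cells, without overlap (log2 difference 0.79, limma adjusted p 0.0861, and 0.00697 with the GC trend removed). Of the 4 tested genes of the immunoproteasome and its PA28 activator, 0 passed an FDR of 0.05 in either direction by limma and 1 was higher at an unadjusted p below 0.05 (median 0.27). Of the 3 constitutive catalytic subunits, 0 passed either threshold (median 0.32).

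The SXY module of class I promoters is bound by RFX, CREB/ATF and NF-Y proteins, on which NLRC5 and, for class II genes, CIITA act. Of 7 tested genes of this group, limma called 0 at an FDR of 0.05, and 2 were higher and 1 was lower at an unadjusted p below 0.05 (median 0.11). After GC removal 2 were higher and 0 lower at an FDR of 0.05. RFX5 read 17.4 and 17.1 FPKM in WT cells and 15.4 and 16.4 FPKM in ZCCHC4 KO1 cells (limma adjusted p 0.731). CIITA read at most 0.24 FPKM in any library and was not tested. Of 8 tested genes reported to restrain class I, among them subunits of the Polycomb complex PRC2, limma called 0 at an FDR of 0.05 and 0 at an unadjusted p below 0.05 (median 0.03).

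Interferons are the best known inducers of class I genes, through JAK kinases and factors such as IRF1. IRF1 read 3.42 and 4.04 FPKM in WT cells and 7.01 and 5.83 FPKM in ZCCHC4 KO1 cells, without overlap (log2 difference 0.65, limma adjusted p 0.135, and 0.0121 with the GC trend removed). Of 14 tested signalling genes, 0 passed an FDR of 0.05 as higher and 3 as lower (median -0.30), and at an unadjusted p below 0.05 these counts were 1 and 4. At an FDR of 0.05 after GC removal, 2 were higher and 5 lower, and the median was -0.12. The median was -0.15 without WT replicate 1 and -0.46 without WT replicate 2 (1 lower in each), -0.12 without ZCCHC4 KO1 replicate 1 (2 lower) and -0.52 without ZCCHC4 KO1 replicate 2 (4 lower). The 3 that passed with all libraries were SOCS3, a feedback inhibitor of cytokine receptors (13.3 and 15.7 FPKM in WT cells, 3.71 and 3.30 FPKM in ZCCHC4 KO1 cells), and the receptor chains IFNGR2 and IFNAR2. IFNGR2 read 24.5 and 23.6 FPKM in WT cells and 13.2 and 13.1 FPKM in ZCCHC4 KO1 cells, and IFNAR2 read 12.3 and 13.1 FPKM in WT cells and 5.88 and 6.49 FPKM in ZCCHC4 KO1 cells. The limma adjusted p-values of SOCS3, IFNGR2 and IFNAR2 were 0.0112, 0.0376 and 0.0433.

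Of 37 interferon-stimulated genes, 35 were in the table and 19 were tested. By limma at an FDR of 0.05, 0 were higher and 1 was lower, and at an unadjusted p below 0.05, 6 were higher and 1 was lower (median 0.18). The count past an FDR of 0.05 as higher depended on the scaling: it was 4 under median-ratio scaling, 6 under quantile normalization and 8 after GC removal, with 1 lower each time. Over all tested genes the shares higher were then 3.23%, 4.34% and 13%. OAS1, which senses double-stranded RNA, fell from 6.86 and 8.29 FPKM in WT cells to 2.53 and 2.29 FPKM in ZCCHC4 KO1 cells (limma adjusted p 0.0240), a call that was lost without WT replicate 2. ISG15, chosen after its values were seen, read 29.0 and 27.2 FPKM in WT cells and 66.2 and 39.8 FPKM in ZCCHC4 KO1 cells (limma adjusted p 0.114, and 0.0208 with the GC trend removed). OAS1 and ISG15 therefore lay on opposite sides within this list.

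Other class I-like chains and the ligands of NKG2D, an activating receptor of natural killer cells and T cells, had mostly negative differences, in 3 of 4 and 4 of 5 tested genes. Over all tested genes, 5708 of 10726 differences were also negative. HLA-G, chosen after its values were seen, was the exception among the chains (0.79 and 1.17 FPKM in WT cells, 1.84 and 1.44 FPKM in ZCCHC4 KO1 cells, limma adjusted p 0.283), and ULBP3 among the ligands (log2 difference 0.12, limma adjusted p 0.802). Of 5 tested NKG2D ligand genes, limma called 0 higher and 2 lower at an FDR of 0.05 (median -0.50), and at an unadjusted p below 0.05 these counts were 0 and 4. After GC removal 4 were lower at an FDR of 0.05, and with either ZCCHC4 KO1 library left out 1 was. RAET1E fell from 2.52 and 3.10 FPKM to 0.70 and 0.87 FPKM, and RAET1G from 2.23 and 2.74 FPKM to 0.82 and 0.49 FPKM, with limma adjusted p-values of 0.0325 and 0.0398. MICA, chosen after its values were seen, read 72.3 and 81.6 FPKM in WT cells and 59.4 and 48.8 FPKM in ZCCHC4 KO1 cells (limma adjusted p 0.127, and 0.0215 with the GC trend removed). Of 4 tested class I-like chains, limma called 0 higher and 1 lower, PROCR, the endothelial protein C receptor, which read 24.1 and 28.5 FPKM in WT cells and 13.0 and 12.2 FPKM in ZCCHC4 KO1 cells (adjusted p 0.0287 by limma). PROCR missed the threshold with either WT library left out, and with the GC trend removed 2 of the 4 chains were lower.

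**Figure D4:**
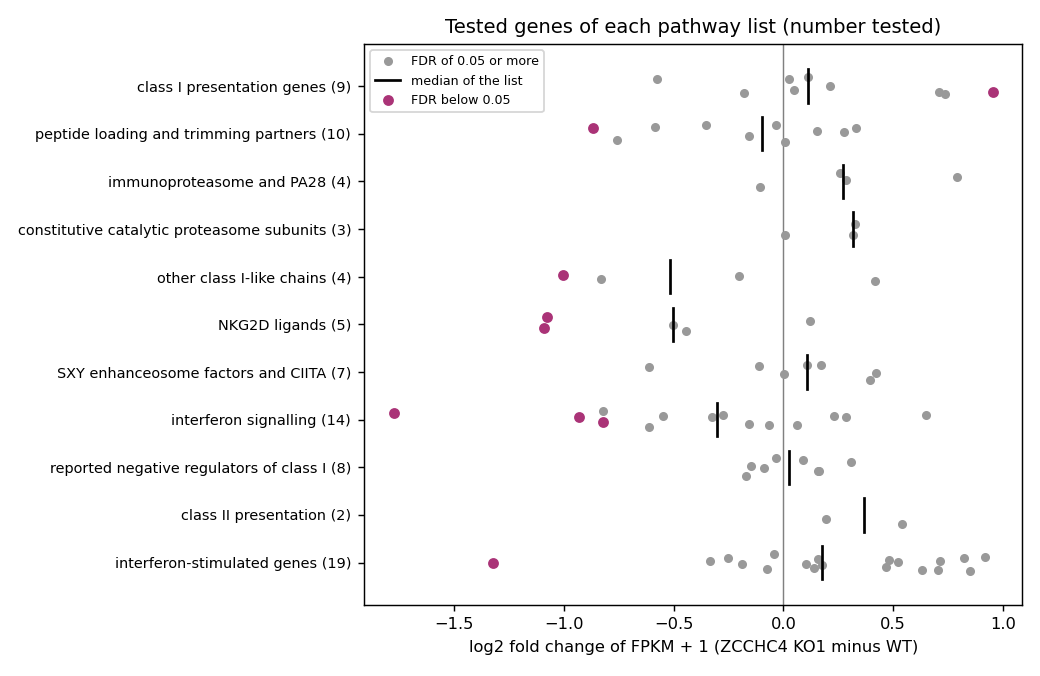
Difference of log2(FPKM + 1), ZCCHC4 KO1 minus WT, of each tested gene in 11 lists, with a black bar at the median of a list and coloured points for an FDR below 0.05. The class I presentation genes reach from -0.58 to 0.95, and the medians of the NKG2D ligands and interferon signalling lists are -0.50 and -0.30.

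Of the 9 genes, 7 lie on chromosome 6 in the interval from HLA-F to TAPBP (29723434 to 33314078), the HLA region. The other 78 tested genes of this interval had a median log2 difference of -0.23, with 23 positive and 55 negative values between -1.13 and 0.64. Over all tested genes 5018 values were positive and 5708 negative, with a median of -0.03. By limma at an FDR of 0.05, 0 of the 78 were higher and 4 were lower (5.13%), against the 1.5% and 4.48% of all tested genes given above, and at an unadjusted p below 0.05 these counts were 3 and 23. The differences of HLA-C, HLA-B and HLA-E were above those of all 78 neighbours, and that of TAPBP was not the lowest in the interval.

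**Figure D5:**
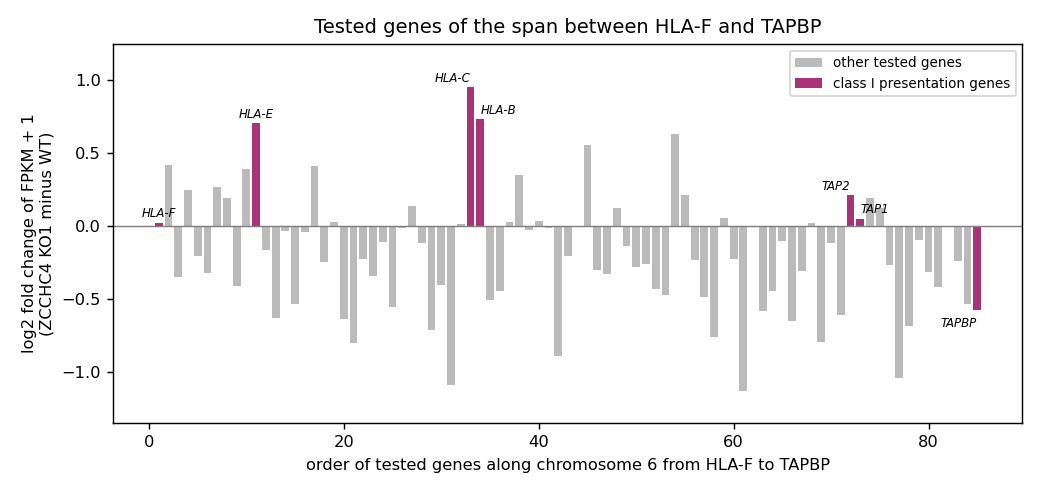
Difference of log2(FPKM + 1), ZCCHC4 KO1 minus WT, of the 85 tested genes between HLA-F and TAPBP in their order along chromosome 6, with 7 class I presentation genes in colour. HLA-C, HLA-B and HLA-E have the highest positive bars of the interval, several negative bars are longer, and 55 of the 78 other genes have negative bars.

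The genes outside these lists whose values over the 4 libraries were nearest to the mean profile of HLA-B, HLA-C, HLA-E and HLA-F were MIIP, C15orf39 and FDX2. Their Euclidean distances from that profile, on centred log2(FPKM + 1) values, were 0.0168, 0.0188 and 0.0290. The profile was -0.36 and -0.25 in WT cells and 0.45 and 0.16 in ZCCHC4 KO1 cells.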

How the data were processed

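RNA-seq was carried out on 2 WT and 2 ZCCHC4 KO1 libraries. Reads were mapped by the authors with Bowtie2 against GRCh38, RSEM gave the expression estimates, and the deposited table holds FPKM values, 1 column per library. Versions of these tools and the gene annotation are not given in the sources used here. The labels name an Illumina HiSeq instrument and the methods of the study a BGISEQ-500. Groups came from the titles, and every column matched a sample (0 unmatched).

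FPKM values were used as deposited. Genes reaching 1 FPKM in at least 2 libraries entered a linear model of log2(FPKM + 1) on group in limma (version 3.58.1, R version 4.3.3). The functions were lmFit and trended eBayes, and p-values were adjusted by Benjamini-Hochberg over all 10726 tested genes. Fold changes on this scale understate the change of low genes. Count models do not suit FPKM and none was fitted. Because the depth is unknown, the precision rests on 2 libraries per group. The script was tested on simulated data.

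The 9 genes, the pathway lists and the motifs were chosen with earlier results of these data known, and no test was run on a list. Named from the lists were up to 5 genes past an FDR of 0.05 with the smallest p, a fixed set that included IRF1, PSMB8, PSMB9, PSMB10, ERAP1, ERAP2, CALR, PDIA3, RFX5 and CIITA, and the 3 genes nearest in profile, while other names are marked. Markers of simple epithelium, fibroblasts and endothelium were also listed. Symbols, positions and promoters came from RefSeq for GRCh38.p14, with symbols for 16384 of 16658 genes, and GC content, known for 99.1% of tested genes, came from GENCODE transcripts. Alternatives were another pseudocount, other filters, median-ratio scaling, quantile normalization, eBayes without a trend, a replicate block, removal of the GC trend (natural spline with 4 df) and leaving out each library. Some genes that these rules name are not reported here.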

Additional observations from a re-analysis of the deposited data

How the results depend on the processing

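The 2 libraries per group and the unknown depth limit all of these values, and a call that is lost or gained below had its cause not tested unless the change itself removes genes or libraries. HLA-B and HLA-E passed an FDR of 0.05 by limma under median-ratio scaling (0.81 and 0.78), under quantile normalization (0.78 and 0.74) and after removal of the GC trend (0.70 and 0.72), and HLA-B also at a filter of 5 FPKM (0.74). TAPBP passed with the GC trend removed (-0.59), where HLA-F turned to -0.00043. HLA-C (0.95) and ZCCHC4 (-1.48) missed the threshold with no filter on low values, and ZCCHC4 with a pseudocount of 0.1 (-1.92).

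Leaving out each library in turn gave 0.60 to 0.87 for HLA-B, 0.85 to 1.06 for HLA-C, 0.53 to 0.88 for HLA-E, -0.15 to 0.20 for HLA-F, -0.009 to 0.11 for TAP1 and -1.81 to -1.15 for ZCCHC4, which missed the threshold without ZCCHC4 KO1 replicate 1. TAP1 turned negative without WT replicate 1. In these fits the lone library of a group was assumed to vary like those of the other group. Between 0 and 3 of the 9 genes passed an FDR of 0.05 as higher, 0 when WT replicate 1 and 3 when ZCCHC4 KO1 replicate 2 was left out. Over all genes these counts were 97 to 558 higher and 273 to 1037 lower, and at the thresholds of the study 6 to 37 higher and 32 to 146 lower.

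Of the 9 genes, 7 were tested at a filter of 5 FPKM, and 2 of these passed an FDR of 0.05 as higher. The share of all genes tested there was 1.96%. Under median-ratio scaling, quantile normalization or GC removal 3 of the 9 passed as higher, against 3.23%, 4.34% and 13% of all tested genes. After GC removal 1 passed as lower, against 13.8%, and with no filter 0 passed as higher, against 0.492%. Over all genes, those past an FDR of 0.05 as higher numbered 161 as deposited, 346 under median-ratio scaling, 466 under quantile normalization, 1381 after GC removal and 82 with no filter. The lower ones numbered 480, and 721, 1471 and 262 under the last 3 of these. At the thresholds of the study, 2 genes were higher and 6 lower as deposited, 69 and 206 under median-ratio scaling, 32 and 91 under quantile normalization, 46 and 147 after GC removal, 0 and 0 with no filter, and 1 higher without the eBayes trend. With an FDR below 0.05 and at least 2-fold, 100 were higher and 349 lower, and by at least 2-fold in mean FPKM without a test, 222 and 636. With an FDR below 0.05 at any fold, 1 of the 9 genes was higher.

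The replicate numbers of WT and ZCCHC4 KO1 share only a number, and the differences between replicates correlated at -0.79 across genes, so the numbers were not taken to pair the libraries. Under the replicate block 41 genes rose and 139 fell at the thresholds of the study and 107 higher at an FDR of 0.05, and no call among the 9 genes changed. Under it 0 NKG2D ligands, 0 class I-like chains and 1 interferon signalling gene passed an FDR of 0.05 as lower, against 2, 1 and 3 without it. With the replicate block and the GC trend removed, 58 were higher and 171 lower, 681 higher and 965 lower at an FDR of 0.05, with HLA-B (0.70), HLA-E (0.72) and TAPBP (-0.59) past the threshold and HLA-F at -0.00043. A crossed pairing, added after seeing the data, gave 116 higher and 412 lower, 2309 higher and 2986 lower at an FDR of 0.05, and 3 higher and 1 lower of the 9 genes, HLA-B (0.74), HLA-E (0.71) and TAPBP (-0.58) among them.

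Medians of lists that moved were, at a filter of 5 FPKM, 0.21 for the 7 of the 9 genes still tested. At this filter they were -0.25 for 8 loading partners and -0.92 for 2 class I-like chains. With no filter they were -0.014 for loading partners, 0.11 for the immunoproteasome, -0.12 for class I-like chains, -0.33 for NKG2D ligands, 0.005 for class II genes and 0.10 for interferon-stimulated genes. The median of the interferon-stimulated genes was 0.25 under median-ratio scaling or quantile normalization and 0.28 after GC removal, and that of the class I-like chains -0.39 under quantile normalization, -0.34 after GC removal and -0.67 with a pseudocount of 0.1. Quantile normalization gave 0.22 for the 9 genes. Leaving out each library gave 0.056 to 0.20 for the 9 genes, -0.20 to -0.13 for loading partners, 0.088 to 0.49 for constitutive proteasome subunits, -0.64 to -0.42 for NKG2D ligands, -0.15 to 0.34 for the SXY factors, -0.52 to -0.12 for interferon signalling, -0.11 to 0.21 for negative regulators and 0.19 to 0.38 for interferon-stimulated genes.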

Other observations

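Class II presentation genes, which serve CD4+ T cells, were near zero in these libraries. Of 14 listed, 10 were in the table and 2 were tested, and CD74, the invariant chain, read at most 0.08 FPKM and HLA-DRA at most 0.04 FPKM in any library. IFI30, a lysosomal thiol reductase that unfolds antigens, was the exception among the 10 and was chosen after its values were seen. It read 189 and 204 FPKM in WT cells and 318 and 257 FPKM in ZCCHC4 KO1 cells, without overlap (log2 difference 0.54, limma adjusted p 0.110, and 0.0156 with the GC trend removed). Of the 2 tested class II genes, limma called 0 at an FDR of 0.05, and 1 was higher at an unadjusted p below 0.05.

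Among markers of other cell types, endothelial markers summed to at most 0.75 FPKM in any library. Of 5 fibroblast markers in the table, 3 were tested and 1 fell, COL3A1, a collagen chain, which read 15.4 and 14.8 FPKM in WT cells and 5.54 and 6.75 FPKM in ZCCHC4 KO1 cells (limma adjusted p 0.0263). Of 6 simple epithelium markers, 3 were tested, with a median log2 difference of 0.61, and limma called 0 at an FDR of 0.05 and 2 higher at an unadjusted p below 0.05. After GC removal 1 epithelial marker was higher and 2 fibroblast markers and 1 leukocyte marker were lower at an FDR of 0.05. The part of these differences in the class I values was not tested.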
